A study of Mus musculus with 8 samples.

Results

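In activated mouse CD8+ T cells, 47 genes were both more abundant after loss of Trim28 and less abundant when IL-2 was blocked with an antibody. They were chosen from 46556 genes listed in both deposited tables, by values in these same libraries. A gene had to have a mean of at least 50 over the 4 libraries of each table. The ratio of group means, after adding 1 to each mean, had to be at least 1.4 in the knockout against its control and at most 0.71 with the antibody against untreated cells. Of the 9695 genes with enough reads in both tables, 1686 (17.4%) met the knockout limit, 1386 (14.3%) met the antibody limit and 48 (0.495%) met both. The 48 genes were 2.85% of the first set and 3.46% of the second. Lta was then dropped by name, while Gbp2b and Tnfsf10, also named in the rule, did not meet its limits. Because both contrasts chose the genes, the values of the 47 are given as a description with no test.

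The study measured polyA RNA of mouse CD8+ T cells, taken from spleen and lymph node tissue, in 2 experiments, each with 2 groups of 2 libraries. In the knockout experiment, the control carried floxed Trim28 alleles (Trim28 fl/fl, genotype labelled WT) and the knockout was Trim28-/-, and both were activated in vitro. In the antibody experiment, all cells were labelled WT and were stimulated through CD3 and CD28 with antibodies for 3 days, in one group with an antibody against IL-2. Age, strain, the driver of the deletion and the time of activation in the knockout experiment were not given in the sources used here. The labels do not say whether 2 libraries of a group came from separate mice, so that the spread between them, which is all a p-value here measures, may be technical.

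IL-2 is the growth factor that T cells release after stimulation, and it acts through a receptor that activates the transcription factor STAT5. In CD8+ T cells it promotes division and the effector programme, which includes cytokines, homing receptors and transcription factors. TRIM28, also called KAP1, binds to the KRAB domain of many zinc finger proteins and helps them to silence the DNA they recognise.

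Reads recovered per library ranged from 13222831 to 13469789 in the knockout experiment and from 16618750 to 17069569 in the antibody experiment. Trim28 was at 4262 and 4323 (scaled reads, that is read counts divided by a size factor per library) in the control and at 415 and 458 in the knockout, and at 5774 and 5919.8 in untreated and 7926 and 8528 in antibody-treated cells (1.41-fold). Il2 itself was lower in the knockout, at 9299 and 9217 against 5246 and 5410.2, and was 17226 and 16739.7 in untreated and 18716 and 17835 in antibody-treated cells. Il2ra, a chain of the IL-2 receptor, was lower in both experiments. It was at 26818.5 and 27387 in control and 24794 and 23967 in knockout cells, and at 44645 and 43661 in untreated and 22025 and 21937 in antibody-treated cells. All 7 CD8+ T cell markers were measured in every library, with Cd8a at 4154 and 4324 in control and 4945 and 5109 in knockout cells, and at 7193 and 7217 in untreated and 5441 and 5493 in antibody-treated cells. The summed 7 markers were 36893 and 36097 in control, 36878 and 37576 in knockout, 61506 and 61003 in untreated and 45049 and 47227 in antibody libraries, and limma called 3 of the 7 higher and 3 lower in the knockout and 5 lower with the antibody. Summed B cell markers, 6 genes, were between 20.7 and 64.4, summed myeloid markers, 9 genes, between 27.0 and 110.5 and summed erythroid markers, 5 genes, between 2.95 and 18.5 in all libraries. Summed gamma-delta T cell markers, 3 genes, were higher in the knockout (26.4 and 22.3 against 79.8 and 86.3), and summed dendritic markers, 6 genes and mostly Zbtb46, were higher in knockout (163 and 161 against 419 and 405) and in antibody-treated cells (182 and 200 against 472 and 455). Summed stromal and endothelial markers, 5 genes and mostly Pecam1, were 347 and 543 in control against 625 and 670 in knockout and 568 and 606 in untreated against 1151 and 1125 in antibody libraries. The part that such shifts in markers had in the results was not tested. In bulk RNA, fewer cells of a type and less RNA per cell cannot be told apart.

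All 47 genes passed the filter used for testing in both experiments. In all 47, both knockout libraries were above both control libraries, an arrangement found in 51.3% of the 9695 genes. Likewise, in all 47 both antibody libraries were below both untreated libraries, as in 37.6% of the genes, and 8.08% of genes had both arrangements. The rule used these contrasts, so that nothing is read from the counts. The knockout ratio ran from 1.41 to 3.64 with a median of 1.62, and the level with the antibody was 1.41-fold to 10.4-fold lower with a median of 1.95-fold. The difference was larger with the antibody in 33 genes and larger in the knockout in 14. At least a 2-fold difference was present in the knockout in 11 genes, with the antibody in 22 and in both experiments in 6, namely Calcb, Cd38, Fbxo17, Myadm, Napsa and Tbc1d30.

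**Figure D1:**
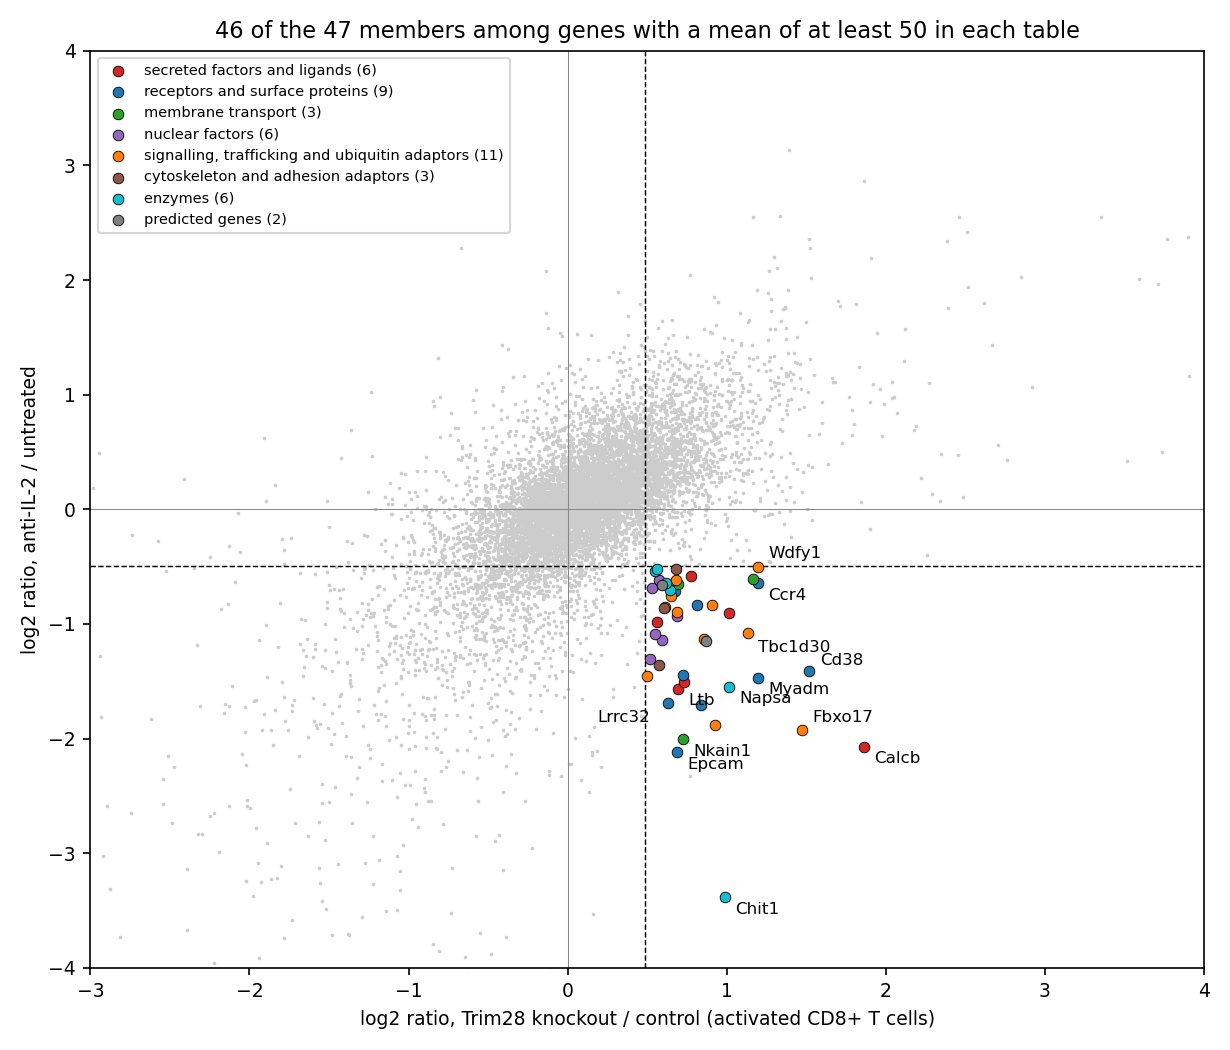
Each point is a gene with a mean of at least 50 in each table, placed by the log2 ratio of group means (plus 1) in the knockout experiment (horizontal) and in the antibody experiment (vertical); the dashed lines mark the limits of the rule, and 42 of 9695 genes lie beyond the axes. Most genes spread along the rising diagonal (Pearson's r = 0.66 over 9695 genes), and the 46 coloured genes occupy the lower right corner, from Wdfy1 near the upper limit down to Chit1.

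Across all 9695 genes, the 2 log2 ratios went together, with a Pearson's r of 0.66 and a Spearman's rho of 0.65, described across genes that share the same 8 libraries and with no test. Both ratios were at least 1.4 in 841 genes and at most 0.71 in 693. The opposite corner to that of the 47, lower in the knockout and higher with the antibody by the same limits, held 25 genes. Within the 47, a larger knockout ratio went only weakly with a larger drop under the antibody (rho = 0.26, r = 0.30, n = 47 genes).

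Promoter sequences, 250 bases before to 50 after the start of the gene in RefSeq (GRCm38.p6), were at hand for 34 of the 47 genes. Where a gene had several such windows, the one farthest upstream was used. The 34 are 72.3% of the 47, under the 80% needed. A count of sequence features over the 47 is therefore void, and only single promoters are shown here. The genes with no entry included Kctd17, Tbc1d30, Calcb, Clcf1, Wdfy1, Ikzf4, Lrrc32, Mtss1, Itgae, Napsa, Gm28187 and Zfp609. Ltb, Sytl3 and Fbxo17 are shown because they hold the letters TTCNNNGAA, the core that STAT factors recognise, which read the same on both strands. The letters occur in 8.42% of all 27025 promoters of the table, and a match is a description of the letters, not of binding. Capitals mark the match, which begins 172 bases before the start in Ltb (chr17:35194257-35194556, plus strand), 28 in Sytl3 (chr17:6658809-6659108, plus strand) and 184 in Fbxo17 (chr7:28716532-28716831, plus strand), and which overlaps no other motif searched.
Ltb: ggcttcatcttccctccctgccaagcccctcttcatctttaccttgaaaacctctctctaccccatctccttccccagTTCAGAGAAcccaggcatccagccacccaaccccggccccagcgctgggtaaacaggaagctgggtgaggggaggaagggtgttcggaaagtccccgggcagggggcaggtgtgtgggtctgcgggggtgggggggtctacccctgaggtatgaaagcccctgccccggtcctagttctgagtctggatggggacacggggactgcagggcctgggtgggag
Sytl3: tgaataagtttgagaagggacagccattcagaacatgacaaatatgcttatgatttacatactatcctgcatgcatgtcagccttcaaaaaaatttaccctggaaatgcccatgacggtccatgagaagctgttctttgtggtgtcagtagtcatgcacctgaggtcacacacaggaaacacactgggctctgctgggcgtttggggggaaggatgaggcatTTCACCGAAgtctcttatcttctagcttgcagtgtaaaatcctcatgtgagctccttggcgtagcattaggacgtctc
Fbxo17: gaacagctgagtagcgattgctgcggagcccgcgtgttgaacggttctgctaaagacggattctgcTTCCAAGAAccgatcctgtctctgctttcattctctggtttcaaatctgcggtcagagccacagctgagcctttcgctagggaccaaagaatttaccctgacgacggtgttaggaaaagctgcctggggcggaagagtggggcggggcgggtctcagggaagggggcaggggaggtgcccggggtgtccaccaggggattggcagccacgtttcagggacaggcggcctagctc

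Csf2 and Chit1 are shown as the genes with the highest control level per kilobase and the largest antibody difference. In Csf2 (chr11:54249850-54250149, minus strand), capitals mark TGGAAA, the core of NFAT sites searched on both strands, 201 bases before the RefSeq start. This window lies wholly upstream of the start of Csf2 in the GENCODE annotation, 54249667, so the match is farther from that start. TGGAAA occurs in 21.5% of all promoters. In Chit1 (chr1:134110992-134111291, plus strand), capitals mark an AP-1 site (TGACTCA or TGAGTCA, the same site read from either strand), 52 bases before the start, present in 5.17% of all promoters. Neither match overlaps another motif searched, the others being the E-box CACGTG, the ISRE pair, the ETS site CCGGAAGT, the SP/KLF site GGGCGG and the CCAAT box, each on both strands.
Csf2: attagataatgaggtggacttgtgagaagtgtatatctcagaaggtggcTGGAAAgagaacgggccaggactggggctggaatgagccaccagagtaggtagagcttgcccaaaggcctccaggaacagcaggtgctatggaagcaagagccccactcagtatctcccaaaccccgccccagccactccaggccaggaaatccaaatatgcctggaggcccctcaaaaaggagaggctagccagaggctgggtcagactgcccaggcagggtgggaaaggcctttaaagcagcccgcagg
Chit1: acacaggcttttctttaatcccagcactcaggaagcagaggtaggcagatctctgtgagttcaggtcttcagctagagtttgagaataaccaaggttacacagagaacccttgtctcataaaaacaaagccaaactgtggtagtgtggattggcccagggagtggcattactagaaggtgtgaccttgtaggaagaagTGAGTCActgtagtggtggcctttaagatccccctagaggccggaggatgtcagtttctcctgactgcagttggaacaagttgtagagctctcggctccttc

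Among the secreted factors and ligands, 6 of the 47, the knockout ratio was between 1.48 and 3.64 and the antibody level 1.49-fold to 4.20-fold lower. Calcb (chr7:114718643-114723365, plus strand) encodes beta-CGRP, a peptide best known from neurons. The positions given here are those of the GENCODE annotation on GRCm38. Calcb was at 155 and 141 scaled reads in control and 525 and 557 in knockout libraries, a ratio of 3.64, the highest of the 47. In the antibody experiment it was at 199.5 and 184 in untreated and 43.9 and 46.0 in treated libraries, 4.20-fold lower. In both experiments the 2 groups were far apart. The rule chose the 47 by these same ratios, so remarks on separation, here and below, are descriptions only.

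Csf2 (chr11:54247271-54249667, minus strand) encodes GM-CSF, a cytokine that acts on granulocytes and macrophages. Its levels were 1523 and 1494 in control, 2570.2 and 2602 in knockout, 1129 and 1101 in untreated and 664 and 829 in antibody libraries, which made it 1.71-fold higher and 1.49-fold lower. The groups did not overlap, but the 2 antibody libraries were further apart than the pairs of the other groups, and Csf2 misses the antibody limit when antibody library A is left out. Scaled for exon length and depth (RPKM, recovered reads scaled to library depth and kilobases of exon), it had the highest control level of the 47, 140.5, and 81.0 in untreated cells. Its neighbour on chromosome 11, Il3, another cytokine gene, was lower in both experiments, at 752 and 684 in control against 274 and 217 in knockout and 445 and 451 in untreated against 40.1 and 42.2 in antibody libraries.

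Ltb (chr17:35194439-35196320, plus strand) encodes lymphotoxin beta, which anchors lymphotoxin alpha at the cell surface. It was at 1300.3 and 1306 in control and 2103 and 2119 in knockout libraries, and at 2064 and 2074 in untreated and 674 and 724 in antibody libraries. Replicates were within a narrow range and the groups were far apart in both experiments, with a ratio of 1.62 and a 2.96-fold lower level. The nearby gene Lta, the partner of Ltb that was removed from the 47 by name, had the same arrangement, at 1077 and 1037 in control against 1819 and 1786 in knockout and 4188 and 4336 in untreated against 778 and 915 in antibody libraries. Tnf, which lies between them, was at 3091 and 3089.8 in control and 2666 and 2573 in knockout libraries, so that of these 3 neighbouring ligand genes it alone was lower in the knockout. With the antibody all 3 were lower, Tnf by 3.07-fold from 6111 and 6112 to 1891 and 2091.

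Ccl1, the chemokine that binds CCR8, was at 98.4 and 74.0 in control and 146 and 142 in knockout libraries. In untreated cells it was at 1056 and 993, and at 324 and 395 with the antibody, 2.85-fold lower. The 2 experiments were scaled separately, and the reference level of Ccl1 differed most between them, an RPKM of 2.71 in control and 25.1 in untreated cells, and its 2 control libraries had the widest spread of the 47 (coefficient of variation 20%). Ccr8, its receptor and no member of the set, went from 8.62 ± 0.714 to 115 ± 1.02 (SD, n = 2) in the knockout, a limma log2 difference of 3.59 (SE 0.147, adjusted p = 2.17e-05).

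Clcf1, a cytokine of the IL-6 family, was at 2547 ± 6.15 in control and 3762 ± 13.4 in knockout cells (SD, n = 2). It was at 6384 and 6724 in untreated and 3198 and 3451 in antibody libraries. Selenop, the secreted carrier of selenium, was at 482 and 520.0 in control and 991 and 1037 in knockout libraries. With the antibody it was 1.87-fold lower, at 451 and 484 against 869.9 and 877, and for neither gene did the groups overlap.

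**Figure D2:**
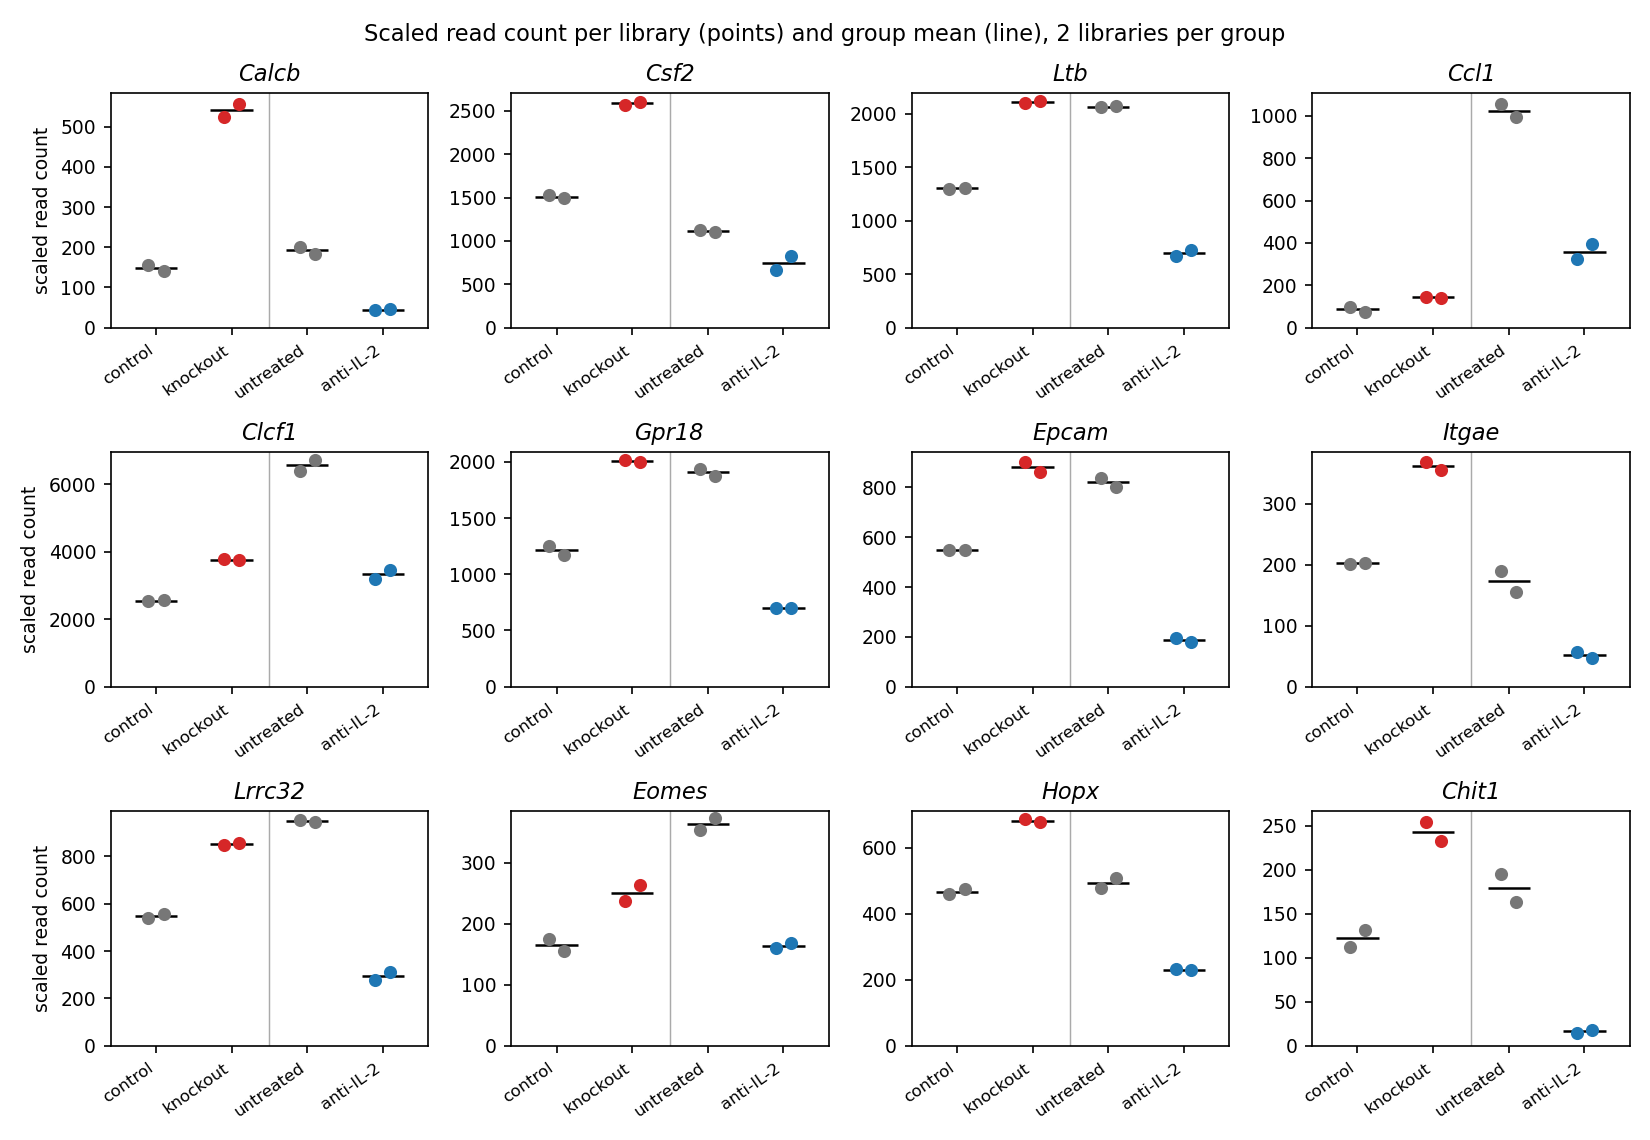
Each panel shows the scaled read count (vertical axis, from 0) of 1 gene in the 8 libraries; points are libraries, lines are the means of 2 libraries, and the grey line separates the knockout experiment (control, knockout) from the antibody experiment (untreated, anti-IL-2). In all 12 genes the knockout points lie above the control points and the antibody points below the untreated ones, and Ccl1 is the gene whose 2 reference groups differ most.

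Receptors and other surface proteins made up 9 of the 47, with knockout ratios of 1.55 to 2.87 and levels 1.56-fold to 4.34-fold lower with the antibody. Ccr4, the receptor for the chemokines CCL17 and CCL22, was at 224 and 207 in control and 521 and 469 in knockout libraries. It was at 354 and 335 in untreated and 213 and 227 in antibody libraries, so that its difference was larger in the knockout (2.29-fold) than with the antibody (1.56-fold lower). Cxcr6, the receptor for CXCL16, was at 112 and 106 in control against 186 and 199 in knockout libraries. In the antibody experiment Cxcr6 was at 217 and 206 in untreated and 148 and 88.2 in treated libraries, and the treated pair had the widest spread of any of the 47 in that group (coefficient of variation 35.8%).

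Gpr18 (chr14:121911253-121915781, minus strand), a G protein-coupled receptor of lymphocytes, was at 1256 and 1172 in control and 2018 and 2002 in knockout libraries. It was at 1937 and 1879 in untreated and 699 and 700.1 in antibody libraries, 2.73-fold lower. Both pairs of groups were clearly separated. Gpr183, a neighbouring receptor gene that guides cells by oxysterols, was higher in both experiments, 1.96-fold in the knockout, from 164 and 179 to 343 and 333, and 2.2-fold with the antibody, from 581 and 643 to 1387 and 1311.

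Itgae (chr11:73090583-73147446, plus strand) encodes CD103, the integrin alpha chain that binds E-cadherin on epithelial cells. It was at 202 and 203 in control and 368 and 356 in knockout libraries, and at 190.2 and 156 in untreated and 57.3 and 47 in antibody libraries. Epcam (chr17:87635979-87651129, plus strand), an adhesion protein best known from epithelia, was at 547 and 548 in control against 904 and 862 in knockout libraries, and at 839.7 and 800.2 in untreated against 195 and 181 in antibody libraries. With the antibody Epcam was 4.34-fold lower and Itgae 3.27-fold lower, Epcam having the largest such difference among the surface proteins.

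Lrrc32 (chr7:98489283-98502181, plus strand) encodes GARP, a surface protein that docks latent TGF-beta. Its level was 539.6 and 558 in control, 847 and 855 in knockout, 956 and 946 in untreated and 277 and 309.8 in antibody libraries. GARP, the factor Eos encoded by Ikzf4, CCR4 and CD103 are all also known from regulatory T cells, so their defining gene was examined. Foxp3 was at 4.06 and 5.07 scaled reads in control, 43.3 and 49.0 in knockout, 58.2 and 50.5 in untreated and 8.59 and 9.59 in antibody libraries, and its mean over the 4 libraries of each experiment was under the 50 that the rule asks for. It was called by limma in both experiments, with log2 differences of 3.09 (SE 0.219, adjusted p = 1.19e-04) in the knockout and -2.45 (SE 0.282, adjusted p = 4.06e-07) with the antibody. Cd4 stayed near 0, at 4.06 and 0 in control, 7.88 and 6.86 in knockout, 4.16 and 1.03 in untreated and 9.55 and 6.71 in antibody libraries. The summed list of 4 CD4 T cell markers, which holds Foxp3, was 504 and 524 in control against 153 and 170 in knockout libraries, and 570 and 496 in untreated against 557 and 586 in antibody libraries. Whether a small fraction of Foxp3-expressing cells had a part in these 4 genes was not tested.

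Cd38 (chr5:43868553-43912375, plus strand), a surface enzyme that consumes NAD, had low counts and a large ratio. It was at 34.5 and 34.5 in control and 99.5 and 102 in knockout libraries, 2.87-fold, the second highest ratio of the 47. In the antibody experiment it was at 83.1 and 75.2 in untreated against 23.9 and 34.5 in treated libraries, 2.65-fold lower. Its neighbour and relative Bst1, an enzyme of the same family, was lower in both experiments, at 109 and 105 in control against 12.8 and 8.82 in knockout libraries and at 287 and 268 in untreated against 18.1 and 5.75 in antibody libraries. The neighbours next to the 47 that are described here were picked after their values were seen.

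Myadm, a membrane protein first described in myeloid cells, was at 152 and 117 in control and 299 and 319.6 in knockout libraries. It was 2.77-fold lower with the antibody, at 49.6 and 35.5 against 124 and 115. Gpm6b, a membrane glycoprotein of the proteolipid family, was 1.59-fold higher in the knockout and 1.64-fold lower with the antibody. Of the 9 myeloid markers, Adgre1, S100a8 and S100a9 were at 0 in the knockout experiment and had means of 2.75, 5.63 and 6.89 in the antibody experiment. The summed level of all 9 was 37.5 and 110.5 in control, 32.5 and 38.2 in knockout, 27.0 and 35 in untreated and 34.4 and 44.1 in antibody libraries, and their part in the values of Myadm was not tested.

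Among 3 genes of membrane transport, Nkain1, a protein that interacts with the sodium pump, had the largest antibody difference, 397 and 336 against 83.1 and 97.8, 4.02-fold lower, after 206 and 214 in control and 320.0 and 374 in knockout. Slc15a2, a transporter of small peptides, was 1.62-fold higher in the knockout and 1.57-fold lower with the antibody. Atp9a, a phospholipid flippase of the P-type ATPase family, was at 57.8 and 71.0 in control against 149 and 143 in knockout libraries, and its untreated and antibody libraries, 211 and 263 against 141 and 169, were separate but spread widely within each pair.

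The 6 nuclear factors had knockout ratios of 1.43 to 1.61, with levels 1.53-fold to 2.47-fold lower with the antibody. Eomes (chr9:118478212-118486132, plus strand), a T-box transcription factor of effector and memory CD8+ T cells, was at 175 and 155 in control and 237 and 263 in knockout libraries. It was at 353 and 373 in untreated and 159 and 169 in antibody libraries, 2.21-fold lower. Eomes is also 1 of the 4 NK cell markers examined. Of the others, Ncr1 and Klra8 were at 0 in all 8 libraries. Klrb1c had a mean of 3.46 scaled reads in the knockout experiment and 2.79 in the antibody experiment.

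Hopx, a homeodomain protein that does not bind DNA itself, was at 458 and 473 in control against 686 and 677 in knockout libraries and at 477 and 507 in untreated against 231 and 230.2 in antibody libraries. Ikzf4 was at 108 and 123 against 156 and 174, and at 219 and 211 against 86.9 and 86.3, in the same order, with a knockout ratio (1.43) close to the limit. For both factors the antibody pair was tight and well below the untreated pair. Zfp609 and Zfp983, both zinc finger genes, had knockout ratios of 1.44 and 1.61 and were 1.61-fold and 1.90-fold lower with the antibody, values that are uncertain for Zfp983 where zinc finger genes share reads with related copies. Ercc1, a subunit of the nuclease of nucleotide excision repair, was 1.49-fold higher and 1.53-fold lower.

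The largest role group, 11 genes, held adaptors of signalling, vesicle traffic and ubiquitin ligases. Fbxo17, an F-box protein, was at 55.8 and 53.7 in control and 151 and 157 in knockout libraries, 2.78-fold, and at 103 and 84.5 in untreated and 24.8 and 23 in antibody libraries, 3.80-fold lower. Tbc1d30, a GTPase-activating protein for Rab proteins, was at 306 and 337 against 718 and 696, and at 432 and 451 against 202 and 214, in the same order. Both genes were at least 2-fold apart in each experiment with no overlap between groups. Klhl6, a BTB and kelch adaptor of cullin ubiquitin ligases that is known from B cells, was at 612 and 584 in control and 1083 and 1089 in knockout libraries. It was at 674 and 665 in untreated and 324 and 289 in antibody libraries, and summed B cell markers were 47.7 and 50.7 in control, 20.7 and 27.4 in knockout, 64.4 and 61.8 in untreated and 64.0 and 62.3 in antibody libraries.

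Sytl3 (chr17:6659093-6738044, plus strand), an effector of Rab27 in vesicle traffic, had the lowest knockout ratio, 1.41, from 1429 and 1473 to 2059 and 2041. With the antibody it was 2.74-fold lower, at 372 and 417 against 1071 and 1094. Rgs9, which speeds GTP hydrolysis by G proteins, was at 63.9 and 49.7 in control and 120.1 and 98.0 in knockout and at 124 and 99.9 in untreated and 26.7 and 32.6 in antibody libraries. For Sytl3 and Rgs9 the antibody difference was the larger one, and for Wdfy1, an endosomal adaptor of Toll-like receptors, it was the smaller. Wdfy1 was at 409.8 and 374 in control against 915 and 888 in knockout libraries, 2.30-fold, and at 441 and 458 in untreated against 334 and 301 in antibody libraries, the smallest antibody difference of the 47 (1.41-fold lower). The other 5 of the group were Ipcef1, which binds cytohesins, the Golgi GTPase gene Rab6b, the ubiquitin ligase adaptors Spsb1 and Kctd17, and Ankrd50, a factor of endosome recycling. They had knockout ratios of 1.53 to 1.87 and were 1.54-fold to 1.86-fold lower with the antibody.

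Chit1 (chr1:134111242-134151540, plus strand), which encodes the chitin-degrading enzyme chitotriosidase, had the largest antibody difference of the 47. It was at 195 and 163 in untreated and 14.3 and 18.2 in antibody libraries, 10.4-fold lower. In the knockout experiment it was at 113 and 132 in control and 254 and 232 in knockout libraries, 1.98-fold higher. Napsa, an aspartic protease, was at 73.0 and 75.0 in control against 158 and 143 in knockout libraries, and at 101 and 98.9 in untreated against 34.4 and 32.6 in antibody libraries. Both enzymes had low counts and groups that did not overlap in either experiment.

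The other 4 enzymes differed less. Man1a, a Golgi mannosidase that trims N-glycans, was at 5825 and 5906 in control, 8580.1 and 8582 in knockout, 9729 and 9527 in untreated and 6831 and 6438 in antibody libraries. Chst11, which sulfates chondroitin, and Cers6, a ceramide synthase, were 1.54-fold and 1.56-fold higher in the knockout and 1.56-fold and 1.63-fold lower with the antibody. Coq8a, a factor of coenzyme Q synthesis, was the least abundant per kilobase, at an RPKM of 0.642 in control and 0.789 in untreated cells.

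The 3 genes of the cytoskeleton were Tns1, which links integrins to actin, Mtss1, which bends membranes at actin-rich sites, and the LIM protein gene Crip2. Tns1 was at 1689.8 and 1705 in control, 2526 and 2527 in knockout, 6170.2 and 5961 in untreated and 2293 and 2436 in antibody libraries, with an RPKM of 7.90 in control and 22 in untreated cells. Mtss1 was 1.52-fold higher in the knockout and 1.81-fold lower with the antibody. Crip2 had the least separated antibody groups of the 47, at 117 and 153 against 87.8 and 101. Its neighbour Crip1, a related LIM protein gene, was lower in both experiments, by 2.13-fold in the knockout and 2.17-fold with the antibody. The 2 predicted genes, Gm28187 and Gm13212, had ratios of 1.83 and 1.51 and were 2.22-fold and 1.58-fold lower with the antibody.

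**Figure D3:**
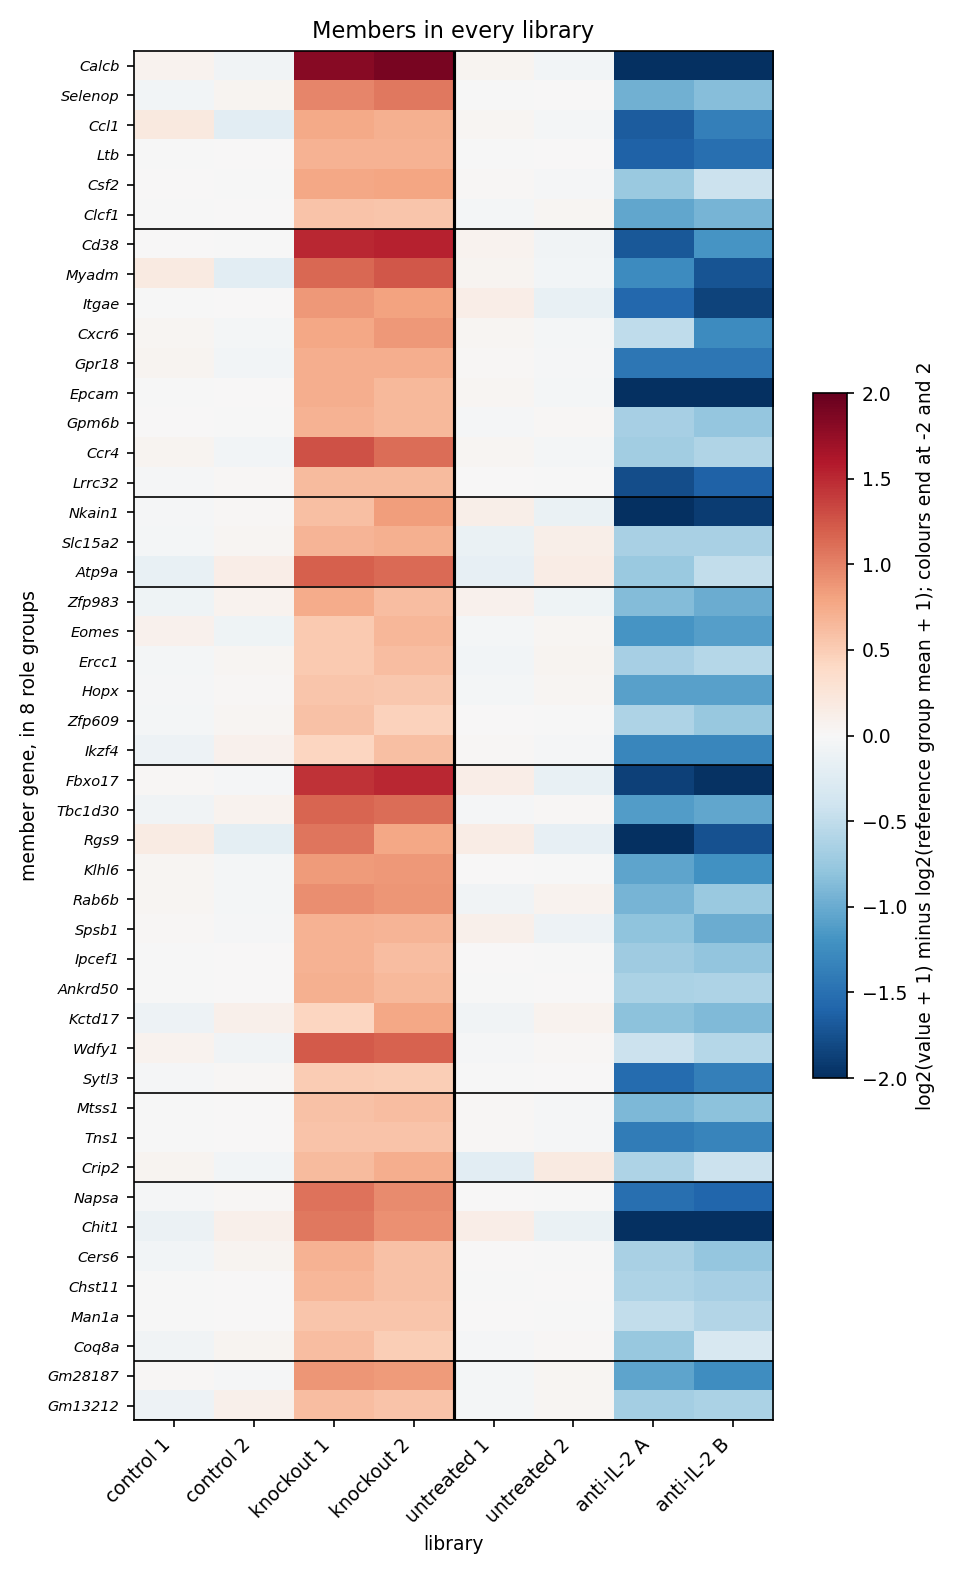
Rows are 46 of the 47 genes in 8 role groups separated by lines, columns are the 8 libraries, and colour is the log2 (value + 1) of a library minus the log2 (mean + 1) of its reference group (control or untreated), with colours ending at -2 and 2. All knockout columns are red and all antibody columns blue, with the darkest red in Calcb, Cd38 and Fbxo17 and the darkest blue in Chit1, Epcam, Calcb and Nkain1.

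Wdfy1, Sytl3, Crip2 and Coq8a lay just inside the limits of the rule, with antibody ratios of 0.707, 0.365, 0.698 and 0.696 and knockout ratios of 2.30, 1.41, 1.60 and 1.48. Just outside lay Atp10a, with 1.47 in the knockout and 0.711 with the antibody, and Pvr, with 1.67 and 0.714. Dock9 (1.397 and 0.569) and 2900026A02Rik (1.395 and 0.644) missed the knockout limit. When each of the 8 libraries was left out in turn, 36 of the 47 met the rule every time. The other 11 did not: Ikzf4 and Sytl3 missed it without control replicate 1, Zfp609 without knockout replicate 1, and Ikzf4 and Kctd17 without knockout replicate 2. Cd38 and Fbxo17 missed it without untreated replicate 1, and Atp9a, Cd38, Crip2 and Wdfy1 without untreated replicate 2. Atp9a, Coq8a, Crip2 and Csf2 missed it without antibody library A, and Wdfy1 without antibody library B. Cd38 and Fbxo17 missed only the limit on the mean, not a limit on a ratio. Even between their nearest untreated and antibody libraries they were 2.14-fold and 3.31-fold lower with the antibody. Their antibody group means, 29.2 and 23.9, were themselves under the limit on the mean, as was the control mean of Cd38, 34.5.

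Per kilobase of exon, the 47 were mostly genes of low or middling abundance. Their median percentile among 9677 genes with a length was 32.7 in control and 36.8 in untreated cells. After Csf2, the highest control levels were those of Ltb (RPKM 64.0), Gpr18 (60.4), Clcf1 (49.9) and Man1a (45.3), and Cd38 (0.660) and Rgs9 (0.662) were close to Coq8a at the low end. Reference levels of the 47 in the 2 experiments went together (rho = 0.87, n = 47 genes, no test). The mean over 4 libraries was under 100 scaled reads in 5 of the 47 in the knockout experiment and in 8 in the antibody experiment.

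By the GENCODE annotation of GRCm38, 46 of the 47 were protein-coding (97.9%, against 94.5% of the 9677 annotated genes), Gm28187 being the exception. Their median gene length was 34786 bases against 22467, and their median exon length 4155 bases against 4520. Chromosome 7 held 7 of them (14.9%, against 7.6% of all). Chromosomes 1, 9 and 10 held 5 each (10.6%, against 5.99%, 5.48% and 4.74% of all), and chromosomes 6, 8, 13 and 18 held 0. Within 100000 bases, 38 of the 47 had at least 1 other gene of the 9677, and in 14 of these (36.8%, against 44.3% of all genes with a neighbour) a neighbour met the knockout limit. A neighbour met the antibody limit in 16 (42.1%, against 34% of all). These are descriptions of the 47, with no test.

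For 7 of the 47, exons overlapped those of another gene with a mean of at least 10 scaled reads in either experiment. The sources used here do not say whether reads were counted by strand. Coq8a overlapped Cdc42bpa, which was lower in both experiments (ratios of 0.499 and 0.534). Ercc1 overlapped Cd3eap (1.47 and 1.17), Sytl3 overlapped Ezr (1.01 and 1.2) and Wdfy1 overlapped Mrpl44 (1.35 and 1.04), in the order knockout and antibody. Hopx, Man1a and Myadm overlapped genes with means between 10 and 50. The values of these 7 genes are uncertain to that extent. Exons of Clcf1 and Zfp983 overlapped those of AC109138.7 and CAAA01141682.1 on the same strand. No values were listed for these overlapping genes, so they could not be counted. Csf2, Eomes, Ikzf4, Ipcef1 and Selenop overlapped genes with means of at most 4.05 scaled reads.

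Of the 47, 12 were in at least 1 of 26 gene lists, as were 983 of the 9695 genes with enough reads in both experiments. A member was held by 7 lists. Over all genes tested with limma, 32.9% were called higher and 28.2% lower in the knockout (15415 genes), and 31.4% higher and 28.9% lower with the antibody (13978 genes), at an adjusted p under 0.05. Of the 12428 genes tested in both, 433 (3.48%) were called higher in the knockout and lower with the antibody. Among the other genes of the 7 lists that were tested in both, the share with this arrangement was 12.2% for IL-2 and STAT5 targets (6 of 49), 11.5% for chemokines and their receptors (3 of 26), 11.3% for integrins, adhesion and cytoskeleton (8 of 71) and 8.33% for channels and transport (3 of 36). It was 8.11% for effector transcription factors (6 of 74), 8% for cytokines (2 of 25) and 6.45% for naive and memory genes (2 of 31). Among the lists that held no member, the share ran from 0% for the KAP1 heterochromatin pathway (0 of 41) to 16.9% for T cell receptor signalling (12 of 71). It was 15.9% for the BCL2 family, death and p53 targets (7 of 44), so high shares were not particular to the lists with a member. The counts for cytokines and for IL-2 and STAT5 targets include Lta, which met the limits of the rule and was dropped by name. These shares are descriptions with no test, and the lists have genes in common. Unlike the rule, a call sets no limit on the size of a difference. The median log2 ratio of the 9695 genes was itself 0.087 in the knockout and 0.049 with the antibody, and it moved with the scaling. Whether more genes were called higher or lower also depended on the scaling, as given below.

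In the list of IL-2 and STAT5 targets, which holds Eomes, Ikzf4 and Csf2, 33 of the 49 other genes tested were lower in the knockout and 11 higher (median log2 difference -0.36). With the antibody 39 were lower and 7 higher (median -1.16). The arrangement of the 47 was called in 6 others, Bcl2, Ccnd2, Lta, Il12rb1, Xbp1 and Tnfrsf4. Of these, Lta met the limits of the rule and was dropped by name. Lta differed by 0.770 in the knockout on the log2 scale. The others differed by only 0.111 (Ccnd2) to 0.185 (Tnfrsf4), less than the rule asks for. Il12rb1, a chain of the IL-12 receptor, differed by 0.15 (SE 0.0393, adjusted p = 0.0183) in the knockout and by -0.997 (SE 0.0591, adjusted p = 3.07e-11) with the antibody, on the log2 scale.

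The list of chemokines and their receptors also holds Gpr18 and Ptger2, which are not chemokine receptors. Of its other genes, beside Ccl1, Ccr4, Cxcr6 and Gpr18, 9 of 27 were higher and 14 lower in the knockout. With the antibody, 6 of 28 were higher and 16 lower. Xcl1, Ccr7 and Cxcr3 were called higher in the knockout and lower with the antibody. Cxcr3, a homing receptor of effector T cells, differed by 0.19 (SE 0.0504, adjusted p = 0.0204) in the knockout and -2.11 (SE 0.0717, adjusted p = 7.91e-15) with the antibody. Ccr7, the receptor that leads T cells into lymph nodes, had the larger knockout difference, 0.77 (SE 0.0226, adjusted p = 8.74e-06), and -0.41 (SE 0.0524, adjusted p = 1.60e-06) with the antibody.

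Of the other cytokine genes, beside Ltb and Csf2, 7 of 27 were higher and 17 lower in the knockout, and 6 of 28 were higher and 19 lower with the antibody. Only Lta and Tgfb1 of these were called higher in the knockout and lower with the antibody, Tgfb1 with 0.54 (SE 0.0235, adjusted p = 2.48e-05) and -0.47 (SE 0.0571, adjusted p = 7.91e-07). Lta met the limits of the rule, which used these contrasts, so its call is no separate observation. Of the other effector and lineage transcription factors, beside Eomes, Hopx and Ikzf4, 23 of 77 were higher and 43 lower in the knockout and 15 of 75 higher and 49 lower with the antibody. The 6 called in the directions of the 47 were Irf4, Stat5a, Foxp3, Ikzf3, Rara and Xbp1. Their knockout log2 differences ran from 0.083 (Irf4) to 3.09 (Foxp3). Ikzf3, which encodes Aiolos, a relative of Eos, differed by 0.47 (SE 0.0435, adjusted p = 3.29e-04) and -1.80 (SE 0.0568, adjusted p = 2.55e-15).

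In the list of integrins, adhesion and cytoskeleton, which holds Itgae, 25 of 72 others were higher and 35 lower in the knockout, and 18 of 71 were higher and 46 lower with the antibody. Itgb2, Selplg, Cd44, Capg, Tubb6, Tuba1c, Sema4d and Nrp1 were the 8 called higher in the first and lower in the second. Their knockout log2 differences ran from 0.140 (Tubb6) to 0.342 (Cd44). Selplg, the selectin ligand PSGL-1, differed by 0.17 (SE 0.0332, adjusted p = 0.00573) and -1.35 (SE 0.0632, adjusted p = 9.87e-13). In the list of naive and memory genes, which also holds Eomes, this was so for 2 of the others, Ccr7 and Cd44, and in the list of nucleotide receptors, channels and transport, which holds Sytl3 and Rab6b, for Orai1, Orai2 and Slc16a11.

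**Figure D4:**
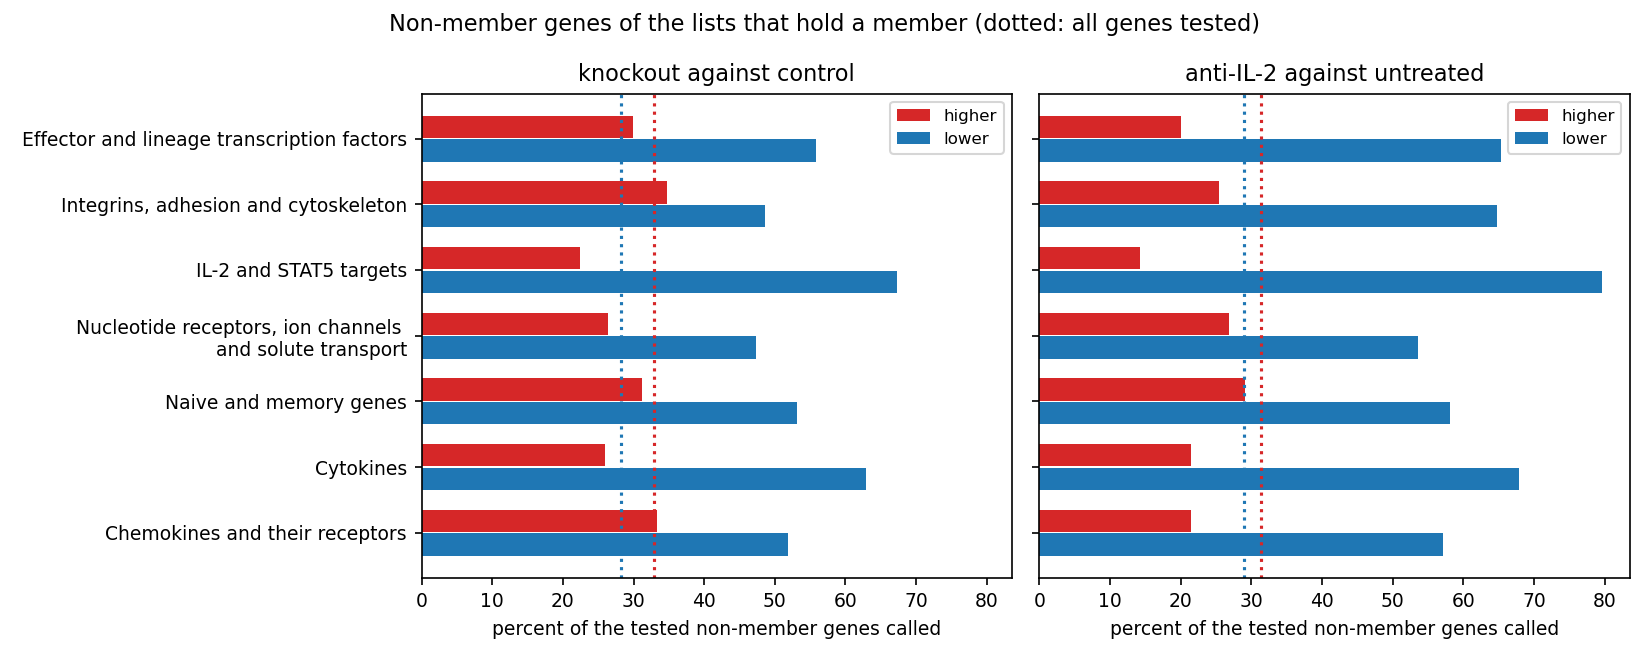
Bars give the percent of the tested genes of each list, without the 47, that limma called higher (red) or lower (blue) at an adjusted p under 0.05 in the knockout (left) and with the antibody (right), and dotted lines give the percents over all genes tested (32.9 and 28.2 on the left, 31.4 and 28.9 on the right). In each of the 7 lists the blue bar is longer than the red one in both experiments.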

How the data were processed

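PolyA RNA of 8 libraries, 2 per group, had been processed by the authors on mm10 with, per the submitters' processing notes, HISAT2 2.2.1, Trim Galore 0.4.4, DESeq2 and StringTie 2.1.4. The read counter, the annotation and the strand setting are not given in the sources used here. The values the authors deposited are a signal, namely gene read counts divided by a size factor per library within each experiment. The authors' deposited log2 fold changes, p-values and test scores were not used for any result.

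Whole reads were recovered from the value of 1 read per library, and 100% of values came out whole within 0.001. The 47 genes were found by the ratio of group means plus 1. Genes reaching 10 in 2 or more libraries entered the test on log2 (value + 1), which understates changes of low genes, with limma 3.58.1 (mean-variance trend, R 4.3.3), each experiment alone, with Benjamini-Hochberg adjustment over all genes tested and a call at an adjusted p under 0.05. edgeR 4.0.16 on the recovered reads called 9119 genes in the knockout and 8409 with the antibody, where limma called 9409 and 8424. The code was tested on simulated data. Libraries of a group differed by more than counting noise (chi-square per degree of freedom 1.32 to 3.87), so none was merged, and 2 libraries per group limit the precision.

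The 47 genes, the 26 gene lists and the markers were chosen with earlier results of these data known. The named genes are, beside Trim28, Il2ra and Il2, the 25 members with the largest smaller change, the 8 with the highest knockout ratio, the lowest antibody ratio or the highest level, members in a list, the 4 members nearest to a limit and the 4 genes just outside, and up to 4 other genes per list by adjusted p. Role groups, neighbours, Foxp3 and the other list genes with the arrangement of the 47 were named after their values were seen. Levels per kilobase use recovered reads and merged GENCODE exons. The antibody columns carry no replicate number and are called A and B. Alternatives were other limits, scalings, added values, tests and leaving out each library. The values of 1 of the 47 genes are not reported here.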

Additional observations from a re-analysis of the deposited data

How the results depend on the processing

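Limits of 2 and 0.5 on the ratios left 6 of the 47 genes, a mean of at least 200 left 25, and a mean of at least 10 gave 96, which held all 47. With 10 added in the ratio 43 genes met the rule, with TMM scaling 45, with upper-quartile scaling 45 (40 of them among the 47), and between the nearest libraries of the groups 34. Leaving out 1 library gave 46 to 55 genes.

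The members' median log2 ratio, 0.70 in the knockout and -0.96 with the antibody, was 0.62 and -1.02 with upper-quartile scaling, and 0.697 to 0.715 and -1.035 to -0.963 when 1 library was left out. The 9409 genes called in the knockout became 5506 with DESeq2 1.42.0 and 5999 to 7272 when 1 library was left out, the lowest without knockout replicate 1 (5999) and knockout replicate 2 (6058). The cause was not tested. The balance of directions depended on the scaling. In the knockout, 5065 genes were called higher and 4344 lower, but 4199 and 5227 with upper-quartile scaling. With the antibody, 4391 were called higher and 4033 lower, but 3822 and 4498 with upper-quartile scaling.

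With the replicate number as a block, 9078 genes were called in the knockout. The numbers did not pair the libraries (correlation of deviations 0.0127 for the same number). No paired analysis was possible for the antibody experiment because its antibody columns carry no replicate number.

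Among the other IL-2 and STAT5 targets, the 11 higher in the knockout became 7 with DESeq2, with upper-quartile scaling or without control replicate 1, and 5 without either knockout library. The 10 channel and transport genes became 5 with DESeq2, 6 without knockout replicate 1 and 5 without knockout replicate 2. The 6 genes of the chemokine and receptor list that were higher with the antibody became 3 with DESeq2. In the 150 bases next to the start, the STAT, NFAT and ISRE letters were each in 2.94% of the 34 promoters, that is in 1. Of the expressed genes' promoters, 3.27%, 6.20% and 1.38% held them in 150 bases. In 300 bases, the shares were 8.82%, 17.6% and 8.82% of the 34, and 6.88%, 15.9% and 3.11% of the expressed genes' promoters. With 34 of the 47 promoters at hand these shares are void as a statement on the 47.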
